A study of Homo sapiens with 6 samples.

Results

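The TWIST, SNAIL, ZEB and PRRX1 factors are 7 mesenchymal transcription factors (TWIST1, TWIST2, SNAI1, SNAI2, ZEB1, ZEB2 and PRRX1), taken by gene symbol from a table of 23355 genes. All 7 were present and passed the filter on low counts, as 14053 genes did. In HFL-1 human lung fibroblasts depleted of TAZ (WWTR1), a transcriptional co-activator of the Hippo pathway, the 7 genes did not move as a block. SNAI2 was lower with both TAZ siRNAs, by 1.38-fold with siTAZ #1 and 3.02-fold with siTAZ #2. PRRX1 moved in opposite directions, 1.67-fold higher with siTAZ #1 and 6.05-fold lower with siTAZ #2. ZEB2 was 2.22-fold lower and SNAI1 2.05-fold higher with siTAZ #2, and TWIST1 was 1.53-fold higher with siTAZ #1. Under 17 alternative ways of processing, the siTAZ #1 change missed the significance threshold in 10 for TWIST1, 9 for SNAI2 and 3 for PRRX1. The SNAI1 change with siTAZ #2 missed it in 4. The falls of SNAI2, ZEB2 and PRRX1 with siTAZ #2 passed it in all 17.

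HFL-1 is a fibroblast line from human fetal lung, and all cells were grown under standard conditions and transfected with Lipofectamine RNAiMAX. The control group, siNTC, received a non-targeting siRNA, and the other groups received siTAZ #1 or siTAZ #2, different siRNAs against the same gene. Total RNA was taken 48 h after transfection and sequenced by Ion Torrent chemistry in 2 biological replicates per group, 6 libraries in all. Every library comes from this single line, and nothing in the labels tells how far apart the replicates were cultured.

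TWIST1 and TWIST2 are basic helix-loop-helix (bHLH) proteins, SNAI1 and SNAI2 are zinc finger proteins of the SNAIL family, ZEB1 and ZEB2 carry zinc finger clusters around a homeodomain, and PRRX1 is a paired-related homeodomain protein of limb and craniofacial mesenchyme. SNAIL and ZEB proteins bind E-boxes and repress epithelial genes such as CDH1, and TWIST proteins act as dimers with E proteins. In fibroblasts these factors are part of the mesenchymal programme. The same genes are known from epithelial-mesenchymal transition (EMT), in which epithelial cells acquire such a programme.

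Counts per library summed to between 15648055 and 32078188. Levels are given as CPM, counts scaled by TMM to a common library size. Log2 fold changes were estimated with edgeR (quasi-likelihood, all 6 libraries fitted together), and FDR is the Benjamini-Hochberg adjusted p over the 14053 genes. WWTR1 fell from 132.2 and 130.8 CPM with siNTC to 26.4 and 28.4 with siTAZ #1 (log2 fold change -2.26, FDR 0.000617) and to 46.1 and 43.1 with siTAZ #2 (-1.56, FDR 0.000681). The stretch of the genome from RANGAP1 on chromosome 22 through X and Y was depleted in replicate 2 of siTAZ #1, where it held 0.246% of the counts, against 3.58% to 3.75% in the other libraries. None of the 7 factors lies in that depleted stretch. All 9 fibroblast and all 4 smooth muscle markers averaged 1 CPM or more, while 7 of 8 epithelial, 5 of 5 haematopoietic, 3 of 5 endothelial and 2 of 4 mesothelial markers averaged less. Of all genes tested, 20.6% passed FDR 0.05 with siTAZ #1 and 28.5% with siTAZ #2. Most of the 9 fibroblast markers are also among the mesenchymal genes listed below. Of these 9 markers, siTAZ #1 lowered 4 and raised 2, and siTAZ #2 lowered 5 and raised 2. Their sum, which the most abundant genes set, was 34880 and 34970 CPM with siNTC, 24050 and 23170 with siTAZ #1, and 27180 and 28940 with siTAZ #2. Summed smooth muscle markers were at 537.5 and 554.1 CPM with siNTC, 647.4 and 562.7 with siTAZ #1, and 349.0 and 380.1 with siTAZ #2, where 1 was lower and 2 were higher. Summed endothelial markers were at 42.1 and 42.5 CPM with siNTC, 46.2 to 47.3 with siTAZ #1, and 26.1 and 31.3 with siTAZ #2. Mesothelial markers summed to 7.13 to 9.89 CPM with siNTC, 6.97 to 8.99 with siTAZ #1 and 13.9 to 14.9 with siTAZ #2. The 2 tested endothelial markers went opposite ways with siTAZ #2 (log2 fold change -0.67 and 1.52), and 1 passed, lower. So did the 2 tested mesothelial markers (-0.55 and 1.21), of which 1 passed, higher. The part of these marker levels in the results was not tested. In bulk RNA, fewer cells of a type and less RNA per cell cannot be told apart.

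Levels of different genes were compared per kilobase of the canonical transcript, whose lengths run from 901 bases for TWIST2 to 9265 for ZEB2. With siNTC, SNAI2 was the most abundant of the 7 at 46.0 ± 0.549 CPM per kb (SD, n = 2). PRRX1 followed at 33.3 ± 0.0522, ZEB1 at 28.7 ± 0.318 and TWIST1 at 15.05 ± 1.98 CPM per kb. ZEB2 at 8.89 ± 0.391, TWIST2 at 7.20 ± 0.0264 and SNAI1 at 4.08 ± 0.511 CPM per kb closed the order, which was the same in both siNTC libraries with no neighbours within their SDs. With siTAZ #1, PRRX1 led in both libraries at 55.6 ± 1.53 CPM per kb. SNAI2 at 33.3 ± 3.71 and ZEB1 at 33.0 ± 7.53 changed places between the libraries, and the pairs ZEB1 and TWIST1, and ZEB2 and TWIST2, were also within their SDs. With siTAZ #2, ZEB1 led at 37.9 ± 1.22 CPM per kb, SNAI2 at 15.25 ± 1.15, TWIST2 at 12.8 ± 2.20 and TWIST1 at 11.25 ± 0.35 followed in that order in both libraries, TWIST2 overlapping each of its neighbours at 1 SD, and PRRX1 at 5.50 ± 0.312 and ZEB2 at 4.004 ± 0.34 CPM per kb came last.

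**Figure D1:**
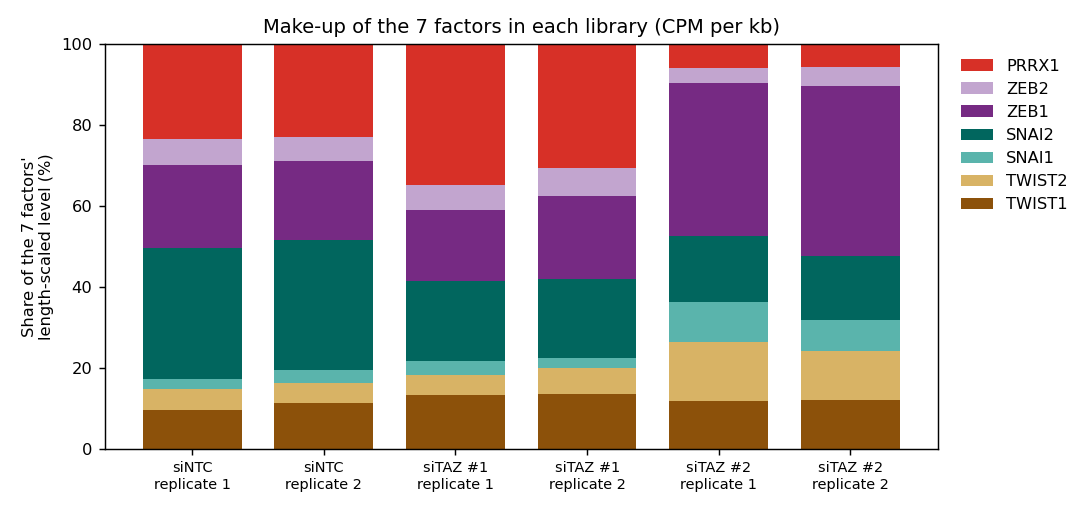
Share of each factor in the sum of the 7 levels (CPM per kb of transcript, percent, stacked bars) in each of the 6 libraries. PRRX1 takes 23.5% and 23.0% with siNTC, 34.8% and 30.6% with siTAZ #1 and 5.84% and 5.73% with siTAZ #2, while ZEB1 takes 37.8% and 42.1% with siTAZ #2.

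The summed level of the 7 genes was 526.2 and 525.7 CPM with siNTC, 592.1 and 713.5 with siTAZ #1, and 361.0 and 362.6 with siTAZ #2. The sum was therefore lowest in the siTAZ #2 libraries, and the siTAZ #1 libraries were the least alike.

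**Figure D2:**
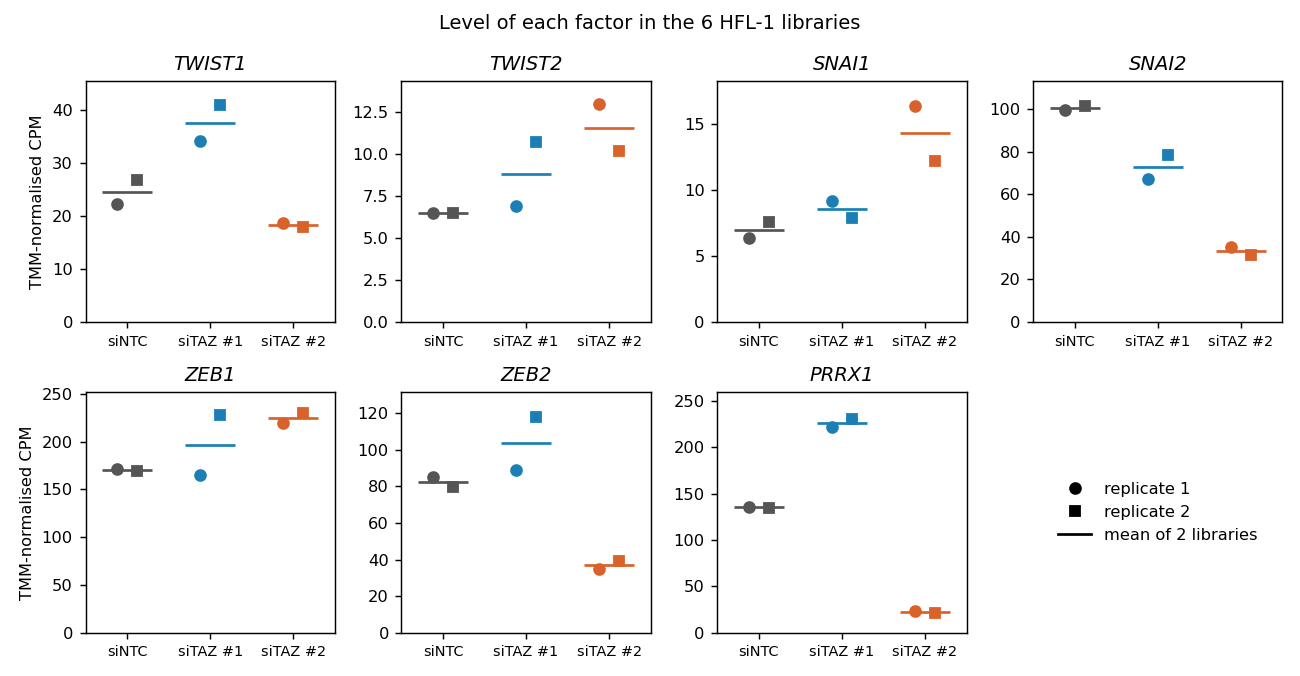
TMM-scaled CPM of each factor in the 6 libraries, one panel per gene with its own axis from 0; circles (replicate 1) and squares (replicate 2) are libraries and lines are group means. SNAI2 is lower in all 4 siTAZ libraries, TWIST2 and SNAI1 are higher in all 4, and PRRX1 lies between 221.4 and 230.1 CPM with siTAZ #1 and between 21.4 and 23.2 with siTAZ #2.

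The comparison of siTAZ #1 with siNTC asks how depletion of TAZ by this siRNA left the 7 genes. With siTAZ #1, 3 of 7 passed FDR 0.05 (SNAI2 lower, TWIST1 and PRRX1 higher), where 20.6% of all genes tested did, 9.78% lower and 10.8% higher. The comparison of siTAZ #2 with siNTC asks the same of the other siRNA. There, 4 of 7 passed (SNAI2, ZEB2 and PRRX1 lower, SNAI1 higher), beside 28.5% of all genes, 14.4% lower and 14.1% higher. The median log2 fold change of the 7 was 0.33 with siTAZ #1 and -0.42 with siTAZ #2, and that of all genes was 0.016 and 0.015. By levels alone, 6 of 7 with siTAZ #1 (all but ZEB1) and all 7 with siTAZ #2 did not overlap siNTC, as was so for 64.3% and 71.4% of all genes. Both comparisons use the same siNTC libraries. Counts of calls moved with single libraries: with siTAZ #1 the count was 0 without either siNTC library and 6 without siTAZ #1 replicate 1, and with siTAZ #2 it was 7 without either siTAZ #1 library. The number of all genes called moved likewise, from 2889 with siTAZ #1 to 585 and 556 without a siNTC library and 5100 without siTAZ #1 replicate 1, and from 4004 with siTAZ #2 to 6031 and 6042 without a siTAZ #1 library. Without either siTAZ #2 library, the count with siTAZ #1 was 1. The counts of 0 come from edgeR, with 2 (without siNTC replicate 1) and 3 (without siNTC replicate 2) genes at an unadjusted p under 0.05. Over all 6 libraries, 3 of the 7 factors with siTAZ #1 and 7 with siTAZ #2 had an unadjusted p under 0.05. The share of all genes at that unadjusted p was not counted. DESeq2 called 3 and 6 factors, beside 3968 and 4977 of all genes.

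**Figure D3:**
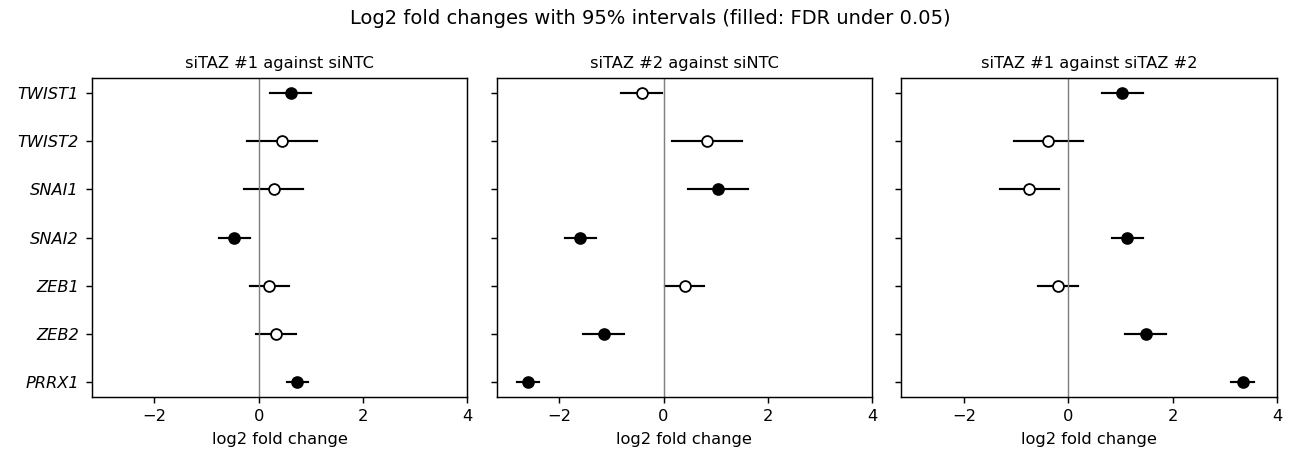
Log2 fold change of each factor with its 95% interval in the comparisons of each siRNA with siNTC and of the siRNAs with each other; filled points pass FDR 0.05. The PRRX1 interval runs from 0.54 to 0.94 with siTAZ #1 and from -2.81 to -2.39 with siTAZ #2, on opposite sides of 0.

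TWIST1 lies at chr7:19155091-19157259 on the minus strand of hg19 (GRCh37), and drives mesoderm and neural crest programmes. TWIST1 stood at 22.3 and 26.8 CPM with siNTC, 34.1 and 41.0 with siTAZ #1, and 18.7 and 17.9 with siTAZ #2. The groups did not overlap, with siTAZ #1 above and siTAZ #2 below siNTC. The log2 fold change with siTAZ #1 was 0.62 (SE 0.16, FDR 0.0455), while with siTAZ #2 the estimate of -0.42 (SE 0.16, FDR 0.105) did not pass. The siTAZ #1 FDR was 0.0127 in edgeR without the depleted stretch and 0.00827 in DESeq2. The siTAZ #1 call lay close to the threshold and was lost without either siNTC library (FDR 0.231 and 0.115), siTAZ #1 replicate 2 (0.092) or either siTAZ #2 library (0.0882 and 0.0913). The siTAZ #2 estimate passed without siTAZ #1 replicate 1 (FDR 0.0445) or replicate 2 (0.0479).

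TWIST2 (chr2:239756726-239832230, plus strand), the paralogue known from dermal and bone mesenchyme, had 6.47 and 6.50 CPM with siNTC, 6.90 and 10.7 with siTAZ #1, and 13.0 and 10.2 with siTAZ #2. All 4 siTAZ libraries were above both siNTC libraries, by little in siTAZ #1 replicate 1. The estimates were 0.45 (95% interval -0.23 to 1.12, FDR 0.3) with siTAZ #1 and 0.83 (0.16 to 1.51, FDR 0.0703) with siTAZ #2, and neither passed. The siTAZ #2 estimate passed without siTAZ #1 replicate 1 (FDR 0.00817) or replicate 2 (0.00935), without that depleted stretch (0.0208) and in DESeq2 (0.0282), and the siTAZ #1 estimate passed without siTAZ #1 replicate 1 (0.0484). Within a library there were 3.78 ± 0.484 TWIST1 counts for each TWIST2 count with siNTC, 4.39 ± 0.787 with siTAZ #1 and 1.61 ± 0.226 with siTAZ #2.

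SNAI1 (chr20:48599517-48605423, plus strand) encodes Snail, a short-lived repressor of CDH1. Its levels were 6.34 and 7.57 CPM with siNTC, 9.16 and 7.85 with siTAZ #1, and 16.4 and 12.2 with siTAZ #2. Both siTAZ #2 libraries were well above the rest, and the siTAZ #1 libraries lay just above siNTC. SNAI1 rose with siTAZ #2 by 1.04 on the log2 scale (SE 0.23, FDR 0.0233). With siTAZ #1 the estimate was 0.29 (95% interval -0.28 to 0.86, FDR 0.427). The siTAZ #2 call was lost without siNTC replicate 1 (FDR 0.14), siNTC replicate 2 (0.0917) or siTAZ #2 replicate 1 (0.117).

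SNAI2 (chr8:49830157-49833988, minus strand) encodes Slug, a SNAIL repressor of neural crest and fibroblasts. It had 99.5 and 101.2 CPM with siNTC, 67.0 and 78.4 with siTAZ #1, and 35.0 and 31.5 with siTAZ #2. The groups were fully apart, in the order siNTC, siTAZ #1, siTAZ #2. SNAI2 fell by 0.47 on the log2 scale with siTAZ #1 (SE 0.12, FDR 0.0423) and by 1.59 with siTAZ #2 (SE 0.12, FDR 0.000922). The siTAZ #1 FDR was 0.00731 in edgeR without the depleted stretch and 0.00357 in DESeq2. Across all genes tested, 9.23% passed with both siRNAs in the same direction, and SNAI2 was the single factor of the 7 among them. The siTAZ #2 call held without each library in turn. The siTAZ #1 call was lost without siNTC replicate 1 (FDR 0.174), siNTC replicate 2 (0.194), siTAZ #2 replicate 1 (0.0691) or siTAZ #2 replicate 2 (0.0619).

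The ratio of SNAI2 to SNAI1 was not tested. There were 15.7 and 13.4 SNAI2 counts for each SNAI1 count with siNTC, 7.31 and 9.98 with siTAZ #1, and 2.14 and 2.58 with siTAZ #2. The ratio was lower in every siTAZ library than in either siNTC library, and lowest with siTAZ #2. SNAI3, the third paralogue, had 1 to 9 counts per library and was not tested.

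ZEB1 (chr10:31608145-31818732, plus strand), a repressor of CDH1 and of the miR-200 genes, had 171.5 and 168.8 CPM with siNTC, 164.5 and 227.7 with siTAZ #1, and 219.8 and 230.1 with siTAZ #2. The siTAZ #1 libraries lay on either side of siNTC, and the siTAZ #2 libraries were both above it. Neither estimate passed, at 0.20 (95% interval -0.17 to 0.58, FDR 0.395) with siTAZ #1 and 0.40 (0.02 to 0.78, FDR 0.105) with siTAZ #2. A single siTAZ #1 library set the direction with that siRNA, since the estimate was 0.42 (FDR 0.00472) without replicate 1 and -0.05 (FDR 0.808) without replicate 2. The siTAZ #2 estimate passed without siTAZ #1 replicate 1 (FDR 0.00147) or replicate 2 (0.00135), without that depleted stretch (0.0225) and in DESeq2 (0.0228). The antisense gene ZEB1-AS1, which starts beside ZEB1 on the opposite strand, had 46 to 151 counts and did not pass, and as no strand setting is given, reads where the genes overlap cannot be told apart.

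ZEB2 (chr2:145141648-145277686, minus strand), a SMAD-binding paralogue of ZEB1, had 84.9 and 79.8 CPM with siNTC, 89.1 and 117.7 with siTAZ #1, and 34.9 and 39.3 with siTAZ #2. The siTAZ #2 libraries were far below all others, and the siTAZ #1 libraries were above siNTC by unequal amounts. ZEB2 fell by 1.15 on the log2 scale with siTAZ #2 (SE 0.16, FDR 0.00469), a call that held without each library in turn. With siTAZ #1 the estimate was 0.33 (95% interval -0.05 to 0.71, FDR 0.189), and it passed without siTAZ #1 replicate 1 (0.52, FDR 0.0043). ZEB1 counts for each ZEB2 count were 2.07 ± 0.068 with siNTC, 1.89 ± 0.0621 with siTAZ #1 and 6.08 ± 0.319 with siTAZ #2.

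ZEB1 and ZEB2 are textbook targets of the miR-200 family, whose mature sequences are shown because the seeds set the sites searched in the 3′ UTRs. They are from RefSeq (GRCh38.p14), with the seed, bases 2 to 8, in capitals. The opening 3 share a seed, and the other 2 share another.
hsa-miR-200b-3p: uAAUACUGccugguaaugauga
hsa-miR-200c-3p: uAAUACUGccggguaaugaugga
hsa-miR-429: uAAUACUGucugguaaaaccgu
hsa-miR-200a-3p: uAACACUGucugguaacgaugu
hsa-miR-141-3p: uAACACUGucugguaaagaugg
In the 3′ UTRs of the canonical transcripts on GRCh37, the reverse complements of these seeds, CAGTATT and CAGTGTT, were counted on the sense strand. ZEB1 held 6 and 3 of them in 2540 bases, and ZEB2 held 5 and 4 in 5370 bases. As many as 9 were found in 0 of 2996 UTRs of like length to that of ZEB1, and in 1 of 1497 (0.07%) of like length to that of ZEB2. SNAI2 held 1 CAGTATT, as 23.87% of UTRs of its length held at least 1 such site, and TWIST1, TWIST2, SNAI1 and PRRX1 held none. These windows show the sites of each seed that come earliest in each UTR, with the matching letters in capitals.
ZEB1 site, chr10:31816545-31816574, plus strand: cattgttttatcttatCAGTATTatcactc
ZEB1 site, chr10:31816639-31816668, plus strand: tatgctaaatccgcttCAGTATTttattat
ZEB1 site, chr10:31816958-31816987, plus strand: gcaaaatcatcagaatCAGTGTTtgtgatt
ZEB2 site, chr2:145146613-145146642, minus strand: ccgcactaccatacatCAGTATTtttatta
ZEB2 site, chr2:145146550-145146579, minus strand: tcgcactacaatgcatCAGTATTatgattc
ZEB2 site, chr2:145146797-145146826, minus strand: atgcaaaaattttgtaCAGTGTTaaggcct
Of the miR-200 family and MIR205 genes, a single count was recorded in the 6 libraries together, for MIR200A in siNTC replicate 2. These libraries of total RNA were not made to read mature miRNAs, so the level of the miRNAs themselves was not measured, and a match is a description of letters only.

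PRRX1 (chr1:170633272-170708562, plus strand) had the largest log2 fold change of the 7 in each comparison over the 6 libraries. It had 135.3 and 135.0 CPM with siNTC, 221.4 and 230.1 with siTAZ #1, and 23.2 and 21.4 with siTAZ #2. Replicates were close and the groups were fully apart. PRRX1 rose by 0.74 on the log2 scale with siTAZ #1 (SE 0.08, FDR 0.00349) and fell by 2.60 with siTAZ #2 (SE 0.09, FDR 0.000312). The siTAZ #1 FDR was 0.000105 in edgeR without the depleted stretch and 8.16e-09 in DESeq2. Opposite calls with the siRNAs were made for 214 of the 14053 genes (1.52%), PRRX1 among them and none of the other 6 factors. The siTAZ #2 call held without each library in turn, and the siTAZ #1 call was missed narrowly without siNTC replicate 1 (FDR 0.0511) or replicate 2 (0.0522). Among the 9873 genes with a mean of at least 10 CPM, 34 had a larger log2 fold change with siTAZ #2 in size. PRRX2, its paralogue, had 9.26 and 8.58 CPM with siNTC, 8.90 and 10.8 with siTAZ #1, and 3.74 and 5.07 with siTAZ #2. It was lower with siTAZ #2 (log2 fold change -1.02, FDR 0.0274) and did not pass with siTAZ #1 (0.15, FDR 0.693). The PRRX2 call was lost without either siNTC or either siTAZ #2 library, with an FDR of up to 0.125.

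The promoters of PRRX1 and ZEB2, the factors that fell with siTAZ #2 and were highest with siTAZ #1, are shown. Beside them stands a single window of ZEB1, which passed in neither comparison. All are RefSeq windows on GRCh38.p14 from 250 bases before to 50 after a transcript start. Of the 7 genes, 4 (TWIST2, ZEB1, ZEB2 and PRRX1) have an entry in that table. TAZ acts on DNA through TEAD factors, so the TEAD letters GGAATG were searched on both strands. The E-box of SNAIL and ZEB, CAGGTG, was searched likewise. The search letters do not overlap each other, and matches are in capitals.
PRRX1 promoter, chr1:170663881-170664180, plus strand: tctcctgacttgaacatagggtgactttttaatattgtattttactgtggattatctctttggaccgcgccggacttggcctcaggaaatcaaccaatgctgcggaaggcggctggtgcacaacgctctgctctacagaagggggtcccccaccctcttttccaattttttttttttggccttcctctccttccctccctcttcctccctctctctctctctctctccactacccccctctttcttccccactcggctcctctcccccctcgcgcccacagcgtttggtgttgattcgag
ZEB2 promoter, chr2:144520070-144520369, minus strand: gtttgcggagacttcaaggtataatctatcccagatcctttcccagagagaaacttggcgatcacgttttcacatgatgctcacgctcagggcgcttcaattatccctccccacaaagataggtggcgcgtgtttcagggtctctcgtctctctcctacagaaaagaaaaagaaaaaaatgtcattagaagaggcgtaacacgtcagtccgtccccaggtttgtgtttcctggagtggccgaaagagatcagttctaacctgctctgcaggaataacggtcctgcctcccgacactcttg
ZEB1 promoter, chr10:31318167-31318466, plus strand: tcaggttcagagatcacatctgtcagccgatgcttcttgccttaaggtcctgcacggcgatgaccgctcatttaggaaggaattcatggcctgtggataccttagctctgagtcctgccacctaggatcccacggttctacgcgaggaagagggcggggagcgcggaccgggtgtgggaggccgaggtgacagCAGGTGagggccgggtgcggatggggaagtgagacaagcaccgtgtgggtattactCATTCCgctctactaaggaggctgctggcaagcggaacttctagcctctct
Neither motif was found in the PRRX1, ZEB2 and TWIST2 windows. The table holds 7 windows for ZEB1, and the one shown, the most upstream, holds a TEAD motif that begins 1 base before the start and an E-box that begins 57 bases before it. Of 35116 promoters of the same length, 14.03% held the TEAD letters and 20.59% the E-box. These are shares of single windows, and a gene with 7 windows has more room for a match. The windows shown are therefore no like-for-like comparison of ZEB1 with PRRX1 and ZEB2. None of the other ZEB1 windows holds the TEAD letters, and another of them holds 3 E-boxes. Which window belongs to the canonical ZEB1 transcript was not determined. No binding was measured in these libraries.

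The direct comparison of siTAZ #1 with siTAZ #2 tests whether the siRNAs left the factors at different levels, without the siNTC libraries in the contrast. Of the 7, 4 passed, all higher with siTAZ #1, beside 28.6% of all genes tested (15.2% higher with siTAZ #1 and 13.4% lower). PRRX1 differed by 3.34 on the log2 scale (SE 0.09, FDR 0.000126), 10.1-fold, and 7 of the 9873 genes with a mean of at least 10 CPM differed by more. ZEB2 differed by 1.48 (SE 0.16, FDR 0.00229), SNAI2 by 1.13 (SE 0.12, FDR 0.00227) and TWIST1 by 1.03 (SE 0.16, FDR 0.00695). These calls held without each library in turn, except TWIST1 without siTAZ #2 replicate 2 (FDR 0.0537). SNAI1 was at -0.75 (95% interval -1.32 to -0.18, FDR 0.058), and passed without siTAZ #1 replicate 1 (FDR 0.021), without that depleted stretch (0.0177) and in DESeq2 (0.0219). Levels of 5 factors did not overlap between the siRNAs (all but TWIST2 and ZEB1), as for 65.6% of all genes. TWIST2 was at -0.39 (-1.05 to 0.28, FDR 0.341) and ZEB1 at -0.20 (-0.58 to 0.18, FDR 0.391). For ZEB1, the value was 0.02 (FDR 0.902) without siTAZ #1 replicate 1 and -0.45 (FDR 0.00426) without replicate 2. In the same contrast WWTR1 stood at -0.70 (FDR 0.00499), lower with siTAZ #1.

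Read over all 4 siTAZ libraries, TWIST2 and SNAI1 were above both siNTC libraries and SNAI2 was below both, while the siTAZ libraries lay on both sides of siNTC for TWIST1, ZEB1, ZEB2 and PRRX1. Among all genes tested, 18.6% were higher and 17.5% lower in all 4 siTAZ libraries. With 4 libraries against 2, an exact two-sided permutation test cannot go below p = 0.133, and with 2 against 2 not below 0.333, so single genes rest on the fit across all genes.

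**Figure D4:**
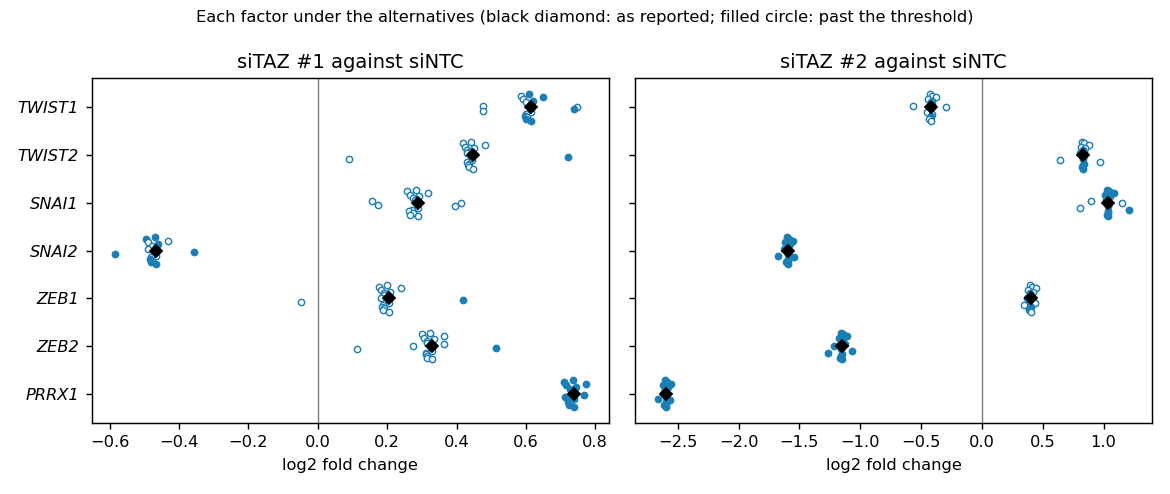
Log2 fold change of each factor under each alternative processing, one panel per comparison with its own axis; black diamonds are the values as reported and filled circles pass the threshold of that alternative. PRRX1, ZEB2 and SNAI2 with siTAZ #2 stay below 0 and past the threshold throughout, and ZEB1 with siTAZ #1 reaches -0.05 and 0.42.

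Members varied together to differing degrees over the 6 libraries, which share siRNA groups and are no independent series. ZEB2 and PRRX1 were the most alike (Pearson r = 0.98 of log2 CPM, n = 6 libraries), and SNAI1 and SNAI2 the most opposed (r = -0.927). ZEB1 and ZEB2 had r = -0.46. Among 9872 other genes with a mean of at least 10 CPM, the 3 most like PRRX1 were MLEC (r = 0.9996), UBR7 (0.999) and NR2C2AP (0.9982). Those most like SNAI2 were FAM120A (0.9998), TOP2A (0.9985) and SUPT16H (0.9983). For ZEB2 they were CCDC117, FAM136A and ITPRIPL2 (0.9973 to 0.9939), and for ZEB1 PAPOLG, TRIP11 and UTP3 (0.9807 to 0.9776). For TWIST1 they were FAM72B, LYAR and FAM72D (0.9973 to 0.9966), for TWIST2 RGPD3, STT3B and UGGT2 (0.9973 to 0.9963), and for SNAI1 KIAA0232, DEXI and IL1RAP (0.9919 to 0.9816). FAM72B and FAM72D are near-identical copies whose reads may be shared, and RGPD3 has such copies too.

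The partners of TWIST proteins were measured in full. For this list and those that follow, the share of all genes tested that passed was 20.6% with siTAZ #1 and 28.5% with siTAZ #2, and no list was tested against it. Of 7 bHLH partners and ID inhibitors, siTAZ #1 lowered 2 and raised 1, and siTAZ #2 lowered 1 and raised 2. The E protein gene TCF4 had 81.8 and 76.2 CPM with siNTC, 43.1 and 48.6 with siTAZ #1, and 107.0 and 107.8 with siTAZ #2. Like PRRX1 it passed in opposite directions, here lower with siTAZ #1 (log2 fold change -0.79, FDR 0.00561) and higher with siTAZ #2 (0.44, FDR 0.0243). TCF12 was lower with both (-0.35, FDR 0.0209, and -0.71, FDR 0.00189), and TCF3 did not pass (0.38, FDR 0.115, and 0.09, FDR 0.684). ID1, which encodes an inhibitor that captures E proteins, rose with both (0.75, FDR 0.0382, and 0.84, FDR 0.0215), while ID2, ID3 and ID4 did not pass, at 0.03, 0.15 and 1.03 with siTAZ #1 and 0.28, -0.24 and 0.55 with siTAZ #2. The TCF12 call with siTAZ #2 held without each library in turn. The list's count with siTAZ #1 was 0 in edgeR without siNTC replicate 1, with 3 genes at an unadjusted p under 0.05, and 1 without siNTC replicate 2. The count was 1 with siTAZ #2 without any 1 of the siNTC or siTAZ #2 libraries, where the ID1 calls and the TCF4 call with siTAZ #2 were among those lost (FDR up to 0.184 and 0.162). Without siNTC replicate 1, TCF4 with siTAZ #1 missed the threshold (FDR 0.0613), and TCF12 did so without either siNTC library (FDR up to 0.147).

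Of 10 genes related to the factors, 4 were tested, of which siTAZ #1 raised 1, and siTAZ #2 lowered 2 and raised 1. TCF21, a bHLH factor of lung mesenchyme, had 44.3 and 54.3 CPM with siNTC, 71.6 and 75.2 with siTAZ #1, and 29.9 and 33.8 with siTAZ #2. It was higher with siTAZ #1 (0.57, FDR 0.0398) and lower with siTAZ #2 (-0.63, FDR 0.0242), the same signs as PRRX1. Without siNTC replicate 2 or either siTAZ #2 library both calls were lost, and without siNTC replicate 1 that with siTAZ #1 (FDR up to 0.21). The list's count was then 0 with siTAZ #1 in edgeR, with 0 to 2 genes at an unadjusted p under 0.05, and 1 with siTAZ #2.

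The next lists hold the proteins that SNAIL, ZEB and TWIST recruit and those that control their stability. Of 18 corepressors and chromatin partners, siTAZ #1 lowered 1 and raised 4, and siTAZ #2 lowered 5 and raised 5 (median log2 fold change -0.05 and -0.08). CTBP1, a corepressor bound by ZEB proteins, rose with both siRNAs (0.39, FDR 0.0389, and 0.52, FDR 0.0124). AJUBA, a LIM protein that SNAIL repressors bind, had 106.2 and 101.9 CPM with siNTC, 43.7 and 44.5 with siTAZ #1, and 139.4 and 137.1 with siTAZ #2. It was lower with siTAZ #1 (-1.24, FDR 0.000904) and higher with siTAZ #2 (0.41, FDR 0.0138). HDAC1, named after its values were seen, was lower with siTAZ #2 (-1.42, FDR 0.00324) and not called with siTAZ #1 (0.27, FDR 0.304). Of 11 genes of protein turnover, 2 passed with each siRNA, both of them lower. Of all genes tested, 9.78% passed lower with siTAZ #1 and 14.4% with siTAZ #2. COPS5, a COP9 signalosome subunit, fell with both (-2.11, FDR 0.000617, and -0.36, FDR 0.0478). The AJUBA and COPS5 calls with siTAZ #1 and the HDAC1 call with siTAZ #2 held without each library in turn, while the other calls named here were lost without each of the siNTC and siTAZ #2 libraries (FDR up to 0.239). The corepressor count was then 1 to 3 with siTAZ #1 and 4 with siTAZ #2, and it was 8 with siTAZ #1 without siTAZ #1 replicate 1. The turnover count was then 1 with siTAZ #1 and 0 with siTAZ #2 in edgeR, with 2 to 3 genes at an unadjusted p under 0.05, where DESeq2 on all libraries called 3, and it was 4 with siTAZ #2 without either siTAZ #1 library.

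Of 12 other EMT factors, 10 were tested. Of these, siTAZ #1 lowered 2 and raised 4, and siTAZ #2 lowered 2 and raised 2. ETS1, an ETS-family factor, was lower with both siRNAs (-0.48, FDR 0.0175, and -0.52, FDR 0.00987). SOX4 was higher with both (0.35, FDR 0.0368, and 0.82, FDR 0.00212), as was the T-box gene TBX2 (0.87, FDR 0.00329, and 0.43, FDR 0.02). SOX4 with siTAZ #2 kept its call without each library in turn. The other calls named here were each lost without at least 1 siNTC library (FDR up to 0.202). With siTAZ #1 the list's count was 2 without siNTC replicate 1 and 0 in edgeR without siNTC replicate 2, with 6 genes at an unadjusted p under 0.05, and with siTAZ #2 it was 2 without siNTC replicate 1 or siTAZ #2 replicate 2.

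CDH1, which encodes E-cadherin and is the best-known target of these repressors, had 3 to 14 counts per library and stayed under 1 CPM in each. Of 20 epithelial target genes, 14 were tested. Of these, siTAZ #1 lowered 1 and raised 1, and siTAZ #2 lowered 2 and raised 1. CLDN7, a claudin of epithelial junctions, had 5.14 and 5.30 CPM with siNTC, 1.81 and 1.69 with siTAZ #1, and 0.982 and 1.63 with siTAZ #2. It fell with both siRNAs (-1.58, FDR 0.0252, and -2.01, FDR 0.00978), and both calls were lost without siNTC replicate 1 or 2 and that with siTAZ #1 also without siTAZ #1 replicate 2 (FDR up to 0.13). With siTAZ #2 the list's count was 0 in edgeR without siNTC replicate 1, with 4 genes at an unadjusted p under 0.05, and 1 without siNTC replicate 2. With siTAZ #1 it was 1 without either siNTC library or siTAZ #1 replicate 2. CLDN1, named after its values were seen, rose with siTAZ #1 (2.59, FDR 0.000917), also without each library in turn, and did not pass with siTAZ #2 (0.08, FDR 0.751). Of 10 epithelial factors such as GRHL2, OVOL2 and ESRP1, 8 were too low to test. Of the other 2, edgeR called 0, with 0 at an unadjusted p under 0.05 and 0 called by DESeq2.

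Of 18 mesenchymal genes, siTAZ #1 lowered 4 and raised 6, and siTAZ #2 lowered 5 and raised 4. The medians of these 18 were -0.02 and 0.07 on the log2 scale. All genes also passed about equally in both directions, with medians of 0.016 and 0.015. MMP14, a membrane-bound collagenase, had 745.7 and 763.5 CPM with siNTC, 1888 and 1598 with siTAZ #1, and 1255 and 1546 with siTAZ #2. It rose with both siRNAs (1.21, FDR 0.00379, and 0.89, FDR 0.00637), as did PDGFRB (0.39, FDR 0.0201, and 0.54, FDR 0.00513). COL1A2, a chain of type I collagen, fell with both (-1.01, FDR 0.00712, and -0.77, FDR 0.0121). POSTN, the matricellular protein periostin, had 492.0 and 483.3 CPM with siNTC, 894.0 and 1015 with siTAZ #1, and 339.2 and 360.5 with siTAZ #2. Its signs were those of PRRX1, higher with siTAZ #1 (0.97, FDR 0.00237) and lower with siTAZ #2 (-0.48, FDR 0.0137). POSTN with siTAZ #1 kept its call without each library in turn, and the MMP14, PDGFRB and COL1A2 calls were lost without either siNTC library (FDR up to 0.161), as was POSTN with siTAZ #2 (up to 0.0907). Without siNTC replicates 1 and 2, the list's count was 3 and 4 with siTAZ #1. With siTAZ #2 it was 0 in edgeR in both cases, with 7 and 8 genes at an unadjusted p under 0.05, 4 and 3 without siTAZ #2 replicates 1 and 2, and 14 without siTAZ #1 replicate 2.

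**Figure D5:**
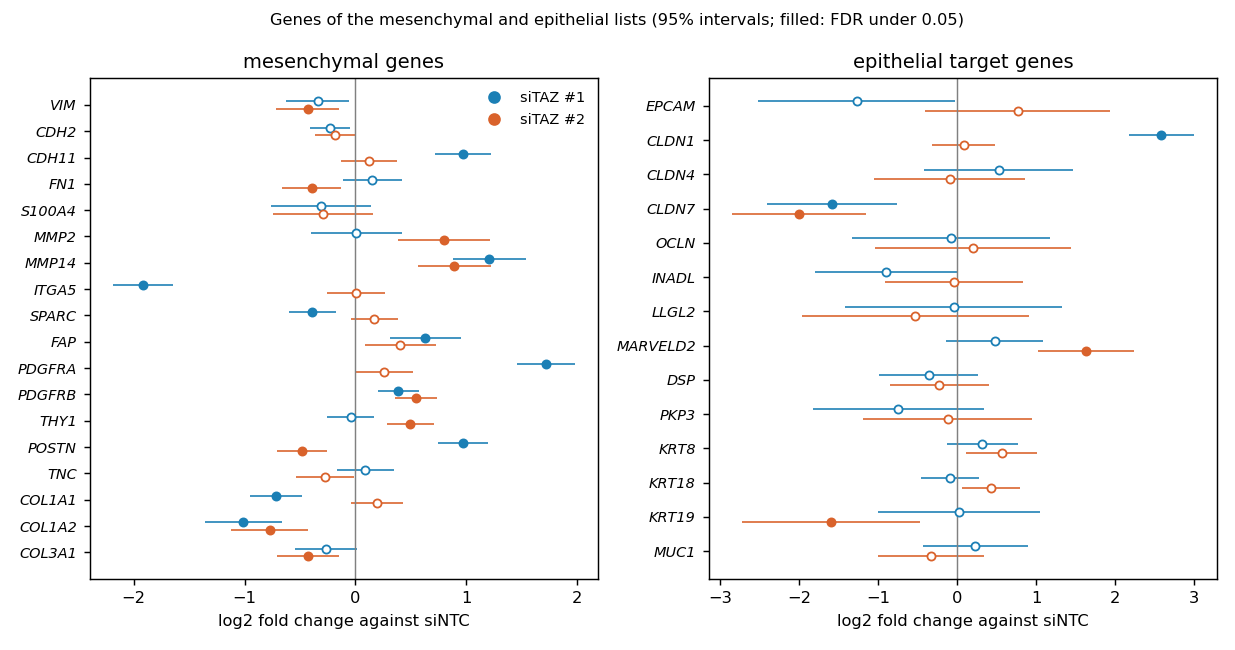
Log2 fold change against siNTC with its 95% interval for the tested genes of the mesenchymal list (18 genes) and the epithelial target list (14 genes), with siTAZ #1 and siTAZ #2 in different colours; filled points pass FDR 0.05. CLDN7 lies below 0 with both siRNAs, MMP14 above 0 with both, and POSTN on opposite sides.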

How the data were processed

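RNA from HFL-1 cells was sequenced on an Ion Torrent platform in 6 libraries. Reads were mapped to hg19 by the authors using TMAP and assigned to genes by HTSeq 0.6.1. The deposited table holds raw read counts, which had not been normalized. The annotation release, strand setting and counting mode are not given in the sources used here. Of 23368 entries, 13 bear a calendar date where a symbol should stand and were left out (0.0458% to 0.0506% of the counts of a library), which left 15648055 to 32078188 counts per library.

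After filterByExpr by group and TMM scaling, edgeR 4.0.16 in R 4.3.3 fitted all 6 libraries together without covariates, and its quasi-likelihood test was used with Benjamini-Hochberg adjustment over 14053 genes and a threshold of FDR 0.05. Standard errors were derived from estimate and F statistic. The spread is shared across groups and genes, as a group has 2 libraries. The p-values set each estimate against that spread between replicate libraries of a single cell line. Likeness of patterns used log2 of CPM plus 0.5. Gene positions and 3′ UTRs are those of canonical GENCODE transcripts on GRCh37, promoters and miRNAs are from RefSeq (GRCh38.p14), and UTRs of like length are those within 25% of a gene's UTR length.

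The members and gene lists were chosen with earlier results of these data known. Named in the text are the 7 factors, WWTR1, the genes of each list that passed with both siRNAs (at most 4), SNAI3, PRRX2, the ID genes, the E proteins, and the 3 genes most like each factor. A gene that this rule names is not reported here. Alternatives were other scalings (RLE, upper quartile, library totals), other filters (none, or an average of 50 counts or more), fitting only the 4 libraries compared, a replicate block, leaving out each library, leaving out the stretch from RANGAP1 on chromosome 22 through Y, edgeR's exact test, DESeq2 1.42.0 and an FDR of 0.1. A crossed replicate block was added after seeing the data.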

Additional observations from a re-analysis of the deposited data

Results flagged for a closer look

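The effects of the siRNAs differed from each other in the direct test for 4 of the 7 factors, beside 28.6% of all genes tested. PRRX1 was 3.34 higher on the log2 scale with siTAZ #1 than with siTAZ #2 (SE 0.09, FDR 0.000126, edgeR quasi-likelihood test), ZEB2 was 1.48 higher (SE 0.16, FDR 0.00229), SNAI2 was 1.13 higher (SE 0.12, FDR 0.00227) and TWIST1 was 1.03 higher (SE 0.16, FDR 0.00695). For each of them both siTAZ #1 libraries were above both siTAZ #2 libraries. Levels of 65.6% of all genes tested did not overlap between these groups, in either direction. WWTR1 differed between the same libraries by -0.70 (FDR 0.00499), and the part of this difference in the results was not tested.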

How the results depend on the processing

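With siTAZ #1 against siNTC, 3 factors were called as reported, 1 without a filter on low counts, in the fit of 4 libraries and with the replicate block, 0 in the exact test of edgeR (where 1 had an unadjusted p under 0.05), and 0 to 6 when single libraries were left out. With siTAZ #2, 4 were called as reported, 7 in the exact test, and 3 to 7 when single libraries were left out. Between the siRNAs, 3 to 5 were called throughout. The WWTR1 difference between the siRNAs did not pass in the exact test (-0.70, FDR 0.236). With single libraries left out, the ZEB1 estimate ran from -0.049 (without siTAZ #1 replicate 2) to 0.419 (without replicate 1) with siTAZ #1, and from -0.448 (without replicate 2) to 0.022 (without replicate 1) between the siRNAs, and so changed sign. Of 17 alternatives, TWIST1 with siTAZ #1 lost its call in 10, SNAI2 in 9 and PRRX1 in 3, and SNAI1 with siTAZ #2 in 4, while SNAI2, ZEB2 and PRRX1 with siTAZ #2 kept theirs in all 17 (highest FDR 0.0204, 0.0432 and 0.0167). The cause was not tested. Over all genes, 2889, 4004 and 4020 were called as reported and 1061, 6424 and 1498 in the exact test. For gene lists, 117 of 520 counts moved by over 1.5 times. The common dispersion was 0.0807, and 0.016 without 580 genes of the depleted stretch (RANGAP1 through Y), a setting that called 3, 6 and 5 factors and 4128, 5218 and 5125 genes.

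Same-numbered replicates did not deviate together (correlations 0.012, -0.007 and -0.125), and they were not treated as pairs. The replicate block called 1, 3 and 4 factors and 1691, 2749 and 2869 genes, and a crossed block between the siRNAs, added after seeing the data, called 4 factors and 3843 genes.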

Other observations

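MIR34A, the gene of a miRNA known to target SNAI1, had 0 and 2 counts with siNTC, 1 and 81 with siTAZ #1, and 41 and 42 with siTAZ #2. It was named after its values were seen. The siTAZ #1 replicates were as far apart as the groups, and neither siRNA passed FDR 0.05 against siNTC in edgeR's quasi-likelihood test (FDR 0.14 and 0.0785). DESeq2 called it with both siRNAs (FDR 0.0118 and 0.00172), as did edgeR without the depleted stretch (0.0215 and 0.00605). With siTAZ #1 it also passed without siTAZ #1 replicate 1 (FDR 0.000303), while without replicate 2 the log2 fold change was 0.03 (FDR 0.995). With siTAZ #2 it also passed without either siTAZ #1 library, in the fit of 4 libraries and in the exact test (highest FDR 0.00065). ZEB2-AS1, beside ZEB2 on the opposite strand, had 4 counts in siNTC replicate 2 and 0 in the other libraries.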
